A study of Homo sapiens with 2 samples.

Results

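SREBF2, SCAP and INSIG1 encode 3 regulators of the sterol response, and their transcripts were examined among the RNA regions recovered with the translation factor eIF4A1 in DU145, an established line of human prostate cancer cells. The members were all deposited peaks whose gene identifier is that of SREBF2 (6721), SCAP (22937) or INSIG1 (3638), which gave 4 of 1920 peaks: 1 at SREBF2, 1 at SCAP and 2 at INSIG1. The genes were chosen by the presence of peaks in this set, that is by the authors' fold and q values, so the presence of these peaks is a description and was not tested. A peak here is a short stretch of the genome where reads of the eIF4A1 library stood above a control.

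A cytoplasmic lysate of DU145 cells, with no treatment named in the labels, was cleared on beads and shared between an eIF4A1 antibody and control IgG, both from rabbit. RNA from each was sequenced as 1 library, in a RIP-seq design that asks which RNAs associate with eIF4A1. There was 1 library per group and 1 cell line, so no value below has a replicate error and no p-value was computed. Each fold, −log10 p and −log10 q is the authors' value for that peak. The sources used here do not say which library served as the control.

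SREBF2 is the gene of SREBP-2, a transcription factor made as a membrane protein of the endoplasmic reticulum (ER). SCAP is its escort: when sterols are scarce it carries SREBP-2 in coated vesicles to the Golgi, where proteases release the part that enters the nucleus and raises genes of cholesterol synthesis and uptake. INSIG1 is an ER retention protein that holds SCAP back when sterols are abundant, and it is itself a target of SREBP. eIF4A1 is the RNA helicase of the cap-binding complex, which unwinds mRNA leaders during translation initiation.

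SREBP binds a short element in promoters, and the promoter of SREBF2 carries the letters of that element, which are shown because they tie the gene to its own pathway. RefSeq (GRCh38.p14) promoters of 250 bases before to 50 after the start were matched for all 3 members. The SREBF2 and INSIG1 windows use the 5' end of the RefSeq gene. The SCAP window (chromosome 3, 47475892 to 47476191) lies inside its gene, whose 5' end is at 47477127, so it uses a later start. The letters TCACNCCAC, searched on both strands, occur in 1.17% of 15843 protein-coding promoters of this length. Of the 3 members SREBF2 had a match, beginning 133 bases upstream of the start. The 30 bases at chr22:41832962-41832991 on the plus strand are shown with the match in capitals.
SREBF2: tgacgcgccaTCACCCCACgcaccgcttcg
The windows of SCAP and INSIG1 did not hold these letters, which says nothing of other forms of the element. A run of 4 GGC units, which has been tied to eIF4A-dependent leaders, was found in none of the 3 windows and in 3.45% of all. Both strands were searched, and only 50 bases of each window follow the start, so these values do not describe leaders. AGAGAG occurs in 23.1% of windows and had 2 overlapping matches in the window of SCAP, the first at 18 bases after the start. The 50 bases after the start used in each window held 72.0% G and C in SREBF2, 78.0% in SCAP and 78.0% in INSIG1, against a median of 64.0% over all protein-coding genes. The start sites used in DU145 were not measured, and none of the 4 peaks lies in these windows.

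SREBF2 had the strongest read support of the 3 genes and also the highest control background. Its peak (hg38 chromosome 22, 41867098 to 41867138, 41 bases) had a fold of 4.40, a −log10 p of 7.65 and a −log10 q of 2.91. The fold and p of a peak together give the reads stacked at its summit and the background they were set against, by the formula of the peak caller. At SREBF2 these were 15 eIF4A1 reads (exact Poisson 95% interval 8.40 to 24.7) over a background of 2.64. One control read at a summit was worth 0.880 in this set, and 108 of the 113 backgrounds at or above that value were whole multiples of it (within 0.01). The SREBF2 background equals 3 such reads.

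Taken as 15 eIF4A1 reads against 3 scaled control reads, the ratio at SREBF2 was 5.68, with an exact binomial 95% interval of 1.61 to 30.6. This interval covers counting error only, since reads without molecular identifiers are not independent molecules. Reads and background were also recovered from the fold and p by which the peak was called. The ratio and its interval are therefore a description and do not test enrichment. In rank, SREBF2 had more reads than 99.5% of all peaks, while 25.8% of peaks had a lower −log10 q. Its fold was above 59.5% of peaks, and 3 peaks in the set had a higher background. High reads and a middling fold therefore stand together at this gene.

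Only 9 of the 1920 peaks had 15 or more reads at the summit, and the SREBF2 peak was among them. By the authors' gene names the other 8 belonged to FASN (2 peaks), the fatty acid synthase gene, ACLY, the ATP citrate lyase gene, MYO16-AS1, and 3 structured noncoding RNA genes. The latter were the U1 gene RNVU1-18 (2 peaks), the 5.8S ribosomal RNA gene RNA5-8SN4 and the signal recognition particle RNA gene RN7SL1, all with near-identical copies, so that these 3 assignments are uncertain. Among protein-coding genes, SREBF2, FASN and ACLY were the members of this group.

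Peaks with 15 reads differed in fold through the background alone. The ACLY peak, with the background of 1 control read, had a fold of 8.51 and a −log10 q of 8.02. SREBF2 and 1 exon-class FASN peak, with the background of 3 control reads, shared a fold of 4.40 and a −log10 q of 2.91. Taken as reads at the summit, the difference in fold between ACLY and SREBF2 came from 1 against 3 control reads, counts whose intervals overlap widely. The SREBF2 background also equals 150 control reads in 1 kb, so the number of control reads behind it is not settled.

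**Figure D1:**
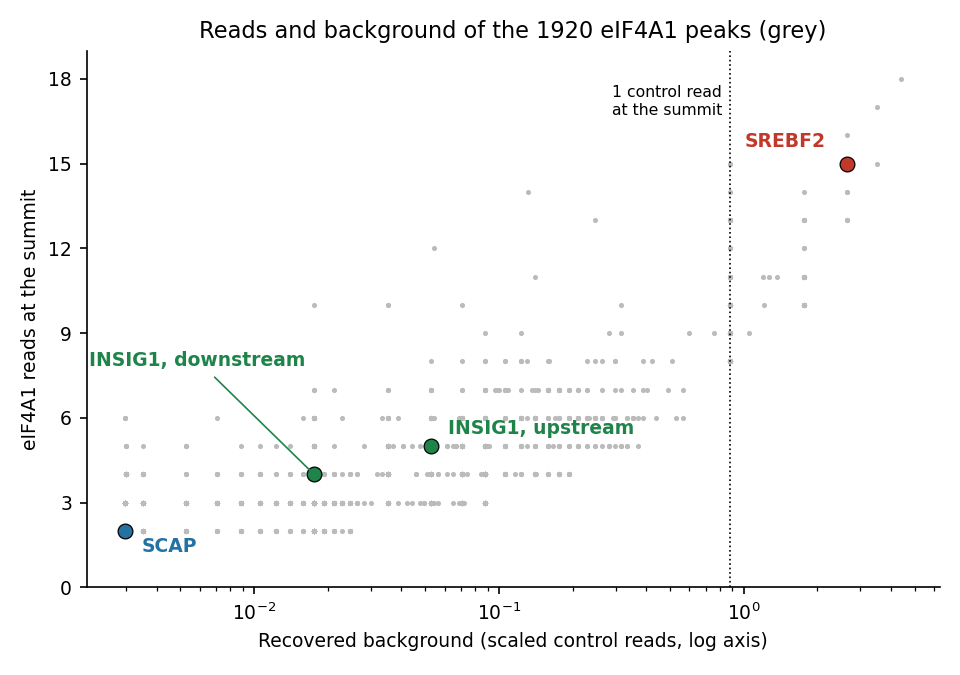
Reads of the eIF4A1 library at the summit (vertical axis) against the recovered background in scaled control reads (horizontal log axis) for all 1920 peaks in grey, many of which coincide, with the peaks of SREBF2, SCAP and INSIG1 in colour. SREBF2 sits at 15 reads and a background of 2.64, right of the dotted line at 1 control read (0.880), while SCAP sits at the lowest reads and background of the set and INSIG1 between them.

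The SREBF2 summit (41867136) lies inside the RefSeq gene (chromosome 22, 41833105 to 41907305, plus strand), 34.0 kb from its 5' end and 45.9% of the way along it. The authors' table places it in exon 2 of 20 of transcript ENST00000612482.4. Of 384 exon-class peaks, 0 had more reads, and 4 including SREBF2 had as many. The nearest transcript start in the authors' table is that of ENST00000462539.1, a shorter transcript of the gene that begins further on, which the table gives as a distance of -6553. MIR33A, a microRNA gene inside SREBF2 whose product targets transcripts of cholesterol efflux, starts 33.8 kb beyond the summit and had 0 peaks.

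SCAP had the lowest reads and fold of the 4 peaks, while its −log10 p and −log10 q were above those of SREBF2. Its peak (chromosome 3, 47442891 to 47442928, 38 bases) had a fold of 2.99, a −log10 p of 8.36 and a −log10 q of 3.15, on 2 eIF4A1 reads (interval 0.242 to 7.22). The background was 0.00298, the lowest level found in the set. SCAP shares its fold and p with 150 peaks of the set, itself included, all of 2 reads at that lowest background. A fold of 2.99 is also the highest that any of the 371 peaks with 2 reads reached. With 0 control reads at the summit, whose limit of 3 counts exceeds the 2 reads seen, no read ratio is given.

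The SCAP summit lies inside the gene (chromosome 3, 47413681 to 47477127, minus strand), 34.2 kb from its 5' end and 54.0% of the way along. The authors class it as promoter within 1 kb because transcript ENST00000545718.2 starts 201 bases away. This class therefore refers to a transcript start in the middle of the gene. Of the 749 peaks in that class, 121 had 2 reads and the median was 3 reads.

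INSIG1 had 2 peaks, both classed as 3' UTR, and they had the highest folds of the 4. The upstream peak (chromosome 7, 155308601 to 155308729, 129 bases) had a fold of 5.70, a −log10 p of 10.5 and a −log10 q of 4.94, on 5 reads (interval 1.62 to 11.7). The downstream peak (155309908 to 155309930, 23 bases) had a fold of 4.91, a −log10 p of 10.9 and a −log10 q of 5.14, on 4 reads (interval 1.09 to 10.2). The peaks differed by 1 read, which is within counting error, so their order by fold is not established.

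The background was 0.0528 at the upstream INSIG1 peak and 0.0176 at the downstream one. These equal 3 and 1 control reads spread over 1 kb, each worth 0.0176, and 85.6% of backgrounds between that value and 1 read at the summit were whole multiples of it. The control thus had 0 reads at either summit. A count of 0 allows up to 3 scaled control reads at each summit, and the reads were 1.89 times that limit at the upstream peak and 1.52 times at the downstream one. The intervals of the reads themselves reach below the limit, so by counting error no lower bound on the ratio is given.

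The INSIG1 summits are 1310 bases apart, at 155308609 and 155309919, and lie 1626 and 316 bases before the 3' end of the RefSeq gene (chromosome 7, 155297878 to 155310235, plus strand). They are therefore 86.8% and 97.4% of the way along the gene. Of the 227 genes with a peak in the 3' UTR class, 15 had 2 or more, INSIG1 among them. Within the 244 peaks of that class, 33 had a higher fold than the upstream INSIG1 peak and 75 a higher fold than the downstream one, and the median fold was 3.99. The upstream INSIG1 peak was also the widest of the 4, wider than 91.2% of all peaks, whose median width was 27 bases.

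**Figure D2:**
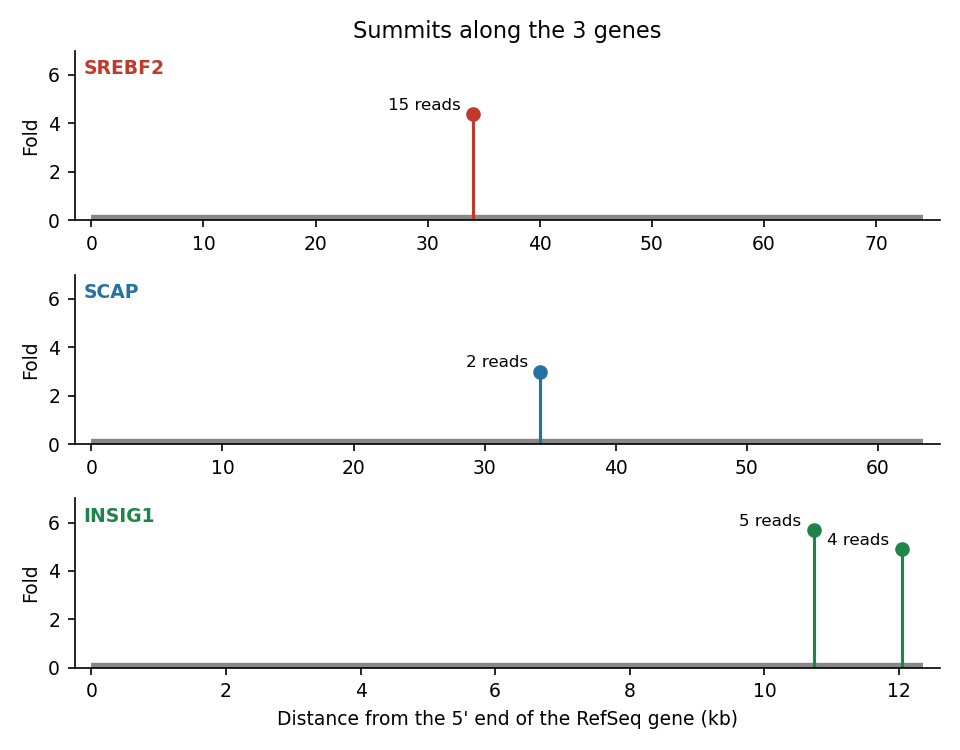
Summits along SREBF2, SCAP and INSIG1, with the distance from the 5' end of the RefSeq gene in kb (horizontal, each gene at its own scale, grey bar the gene including introns) and the authors' fold (vertical). The SREBF2 and SCAP summits lie near the middle of their genes at 34.0 and 34.2 kb, and the INSIG1 summits in its last part at 10.7 and 12.0 kb.

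The 4 peaks thus differed among themselves in position, reads and background. Together they held 26 reads at their summits, of which SREBF2 held 57.7%. Folds ran from 2.99 to 5.70 with a median of 4.66, against a median of 3.99 and quartiles of 3.90 and 4.95 over all peaks. The fold of SCAP was below the lower quartile and that of the upstream INSIG1 peak above the upper one. By reads the order was SREBF2 (15), upstream INSIG1 (5), downstream INSIG1 (4) and SCAP (2). The intervals of INSIG1 and SCAP overlap, as do those of SREBF2 and each INSIG1 peak, while the interval of SREBF2 begins at 8.40, above the upper end of that of SCAP (7.22).

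By −log10 q the order was different, with downstream INSIG1 first (5.14), then upstream INSIG1 (4.94), SCAP (3.15) and SREBF2 (2.91). SCAP on 2 reads thus had a higher −log10 q than SREBF2 on 15 reads. The measure sets reads against the background, which was 0.00298 at SCAP and 2.64 at SREBF2. All 4 lie above the weakest peak of the set, at 1.30, and 74.3% of all peaks had a lower −log10 q than downstream INSIG1.

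**Figure D3:**
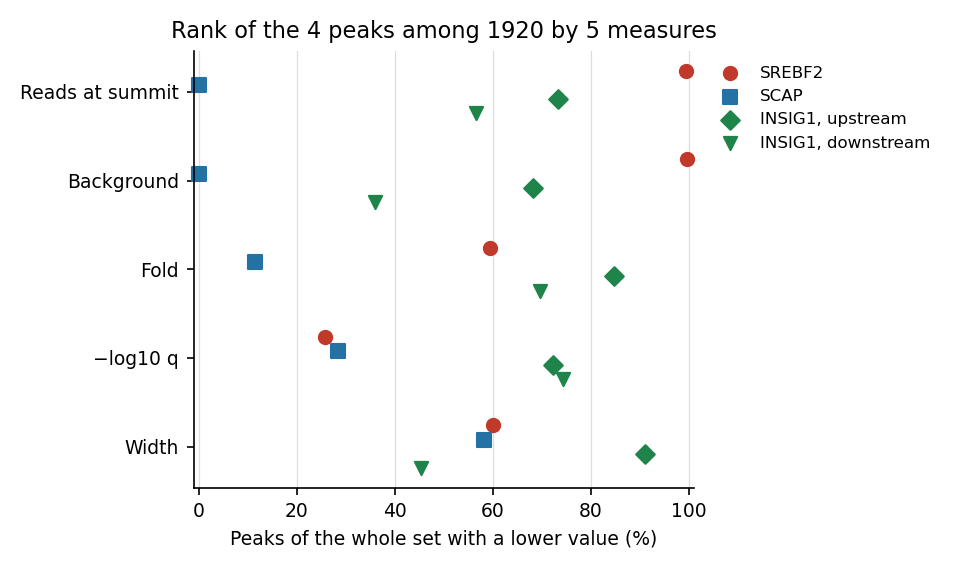
Share of all 1920 peaks with a lower value than each of the 4 peaks (horizontal, percent) for reads at the summit, background, fold, −log10 q and width (rows). SREBF2 lies at 99.5% for reads and 25.8% for −log10 q, SCAP at 0% for reads and 28.5% for −log10 q, and the INSIG1 peaks at 73.3% and 56.6% for reads and 72.3% and 74.3% for −log10 q. Ties count as not lower. The −log10 q of SCAP (3.15) is the median of the set and is held by 532 peaks, itself included. Its 2 reads are held by 371 peaks.

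Under stricter rules for a peak different members remained. INSIG1 kept its downstream peak at a −log10 q of at least 5, a rule met by 2.1% of protein-coding genes against 6.83% for any peak. INSIG1 kept its upstream peak at a fold of at least 5, met by 1.65% of genes. SREBF2 and upstream INSIG1 remained with at least 5 reads, met by 1.9% of genes. SREBF2 remained alone when every background was raised to at least 1 control read, which 0.504% of genes met. In exon and UTR classes SREBF2 and INSIG1 remained, as did 2.59% of genes, and by RefSeq gene body all 3 members had peaks, as did 6.98% of genes. The SCAP peak met none of the first 4 rules. Since the members were selected on having peaks, these shares are given as background and nothing is read from them.

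By the authors' classes, 1 of the 4 peaks was promoter (25.0%, exact Clopper-Pearson interval 0.631 to 80.6), 1 exon and 2 3' UTR. Over all 1919 annotated peaks the promoter share was 57.3% (55.0 to 59.5), inside the interval of the members. With 4 peaks a difference in class was not detectable.

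Genes with the most similar peaks were sought among protein-coding genes with the same number of peaks, by the distance in log2 best fold and log2 summed reads over this 1 pair of libraries. For SREBF2 the nearest of 1171 genes were AMDHD2 and ANKRD28 (each fold 3.85, 13 reads, distance 0.28) and RAD23B (5.07, 13 reads, 0.29). For INSIG1 the nearest of 150 genes were MICAL3 (5.78, 9 summed reads, 0.020), CDC37 (5.62, 9 reads, 0.021) and MFGE8 (5.61, 9 reads, 0.024). For SCAP 72 genes had the identical fold and reads, so none was closest. A further gene lay as near as the third one named, for SREBF2 and for INSIG1 alike. SCAP was thus not distinguishable from many genes by these measures, and SREBF2 and INSIG1 each had 0 genes at a distance under 0.01. That does not set them apart, since the genes named for INSIG1 have its 9 summed reads and folds near its 5.70. The 13 reads of those named for SREBF2 lie within its interval of 8.40 to 24.7.

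The core of the pathway was listed as 7 genes, the factors SREBF1 and SREBF2, SCAP, the retention proteins INSIG1 and INSIG2, and the Golgi proteases MBTPS1 and MBTPS2. The 3 members had peaks by their choice, and 0 of the other 4 had one, by the authors' gene names or by gene body. Over all 20056 protein-coding genes 6.83% had a peak, so 0 of 4 is not a result about these genes. A peak in this set rested on at least 2 reads, and transcripts with fewer could not appear.

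Genes that work with the members had peaks in several lists, given here beside the 6.83% of all protein-coding genes. SCAP leaves the ER in COPII vesicles, and 4 of 11 COPII genes (36.4%) had a peak. The cargo adaptor genes SEC24C (fold 5.61, 5 reads) and SEC24A (3.93) were among them. So were the outer coat gene SEC31A (3.93) and the GTPase gene SAR1B (3.99, 10 reads), whose summit lies outside the gene. At a −log10 q of at least 5 the COPII count was 0. Only 2.1% of all protein-coding genes met that rule, so nothing is read from this 0. Among 14 genes of nuclear partners 5 had a peak (35.7%), led by the Mediator subunit gene MED15 (6.38, 11 reads) and the coactivator genes CREBBP (5.70) and EP300 (5.32). Summits inside the gene were 2 of 3 for MED15 and 1 of 2 for SEC24C. Importin beta (KPNB1, 5.18) carries SREBP-2 into the nucleus, and the oxysterol receptor gene NR1H3 had 4.91. CREBBP had the same fold and read number as upstream INSIG1, and NR1H3 the same as downstream INSIG1.

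Of 16 genes of sterol-regulated degradation, which includes enzymes that act on INSIG1 and HMG-CoA reductase, 3 were named: USP20 (5.65), MARCHF6 (4.92) and ERLIN1 (2.95), with the summits of USP20 and ERLIN1 outside the gene. Of 12 upstream kinases and their effectors, CRTC2 (6.55, 6 reads) had a peak, a share of 8.33% near the 6.83% of all genes. Of 8 sterol-sensing domain proteins, the family of SCAP, 3 had a peak: DHCR7 (5.61), NPC1 (3.93) and SCAP itself, with the lowest fold. SCAP was chosen for having a peak, and 2 of the other 7 had one. DHCR7 is also in the cholesterol synthesis list and NPC1 in the list of cholesterol uptake.

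Cholesterol synthesis is the pathway that SREBP-2 raises, and peaks were found in 12 of its 22 listed genes (54.5%, against 6.83% of protein-coding genes). MVD (7.60, 7 reads) was among them. At a −log10 q of at least 5 the count was 2 of 22, against 2.1% of all protein-coding genes. It was 5 with at least 5 reads (1.9% of all) and 1 with the background raised to 1 control read (0.504%). Peaks were also found in 6 of 16 genes (37.5%) of cholesterol uptake, transport and efflux, the oxysterol-binding protein family gene OSBPL2 (4.98, 4 reads) among them. The fold of MVD was above those of the 4 member peaks, and its summit had fewer reads than that of SREBF2. In the fatty acid synthesis list 7 of 20 had a peak (35.0%). FASN, with 23 peaks and 202 summed reads, had the highest fold of that list (13.3). The median best fold of the genes with a peak was 4.09 for cholesterol synthesis, 3.96 for uptake and transport and 4.91 for fatty acid synthesis, against 3.99 for all 1370 protein-coding genes with a peak.

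Over the 9 lists, 41 of 122 distinct genes had a peak (33.6%), and 38 of 119 (31.9%) without the members, against the 6.83% of all protein-coding genes. The lists were drawn up knowing that lipid genes were frequent in this set, so their share is not independent evidence. Transcript level and gene length were not matched, and their part in the share was not tested.

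**Figure D4:**
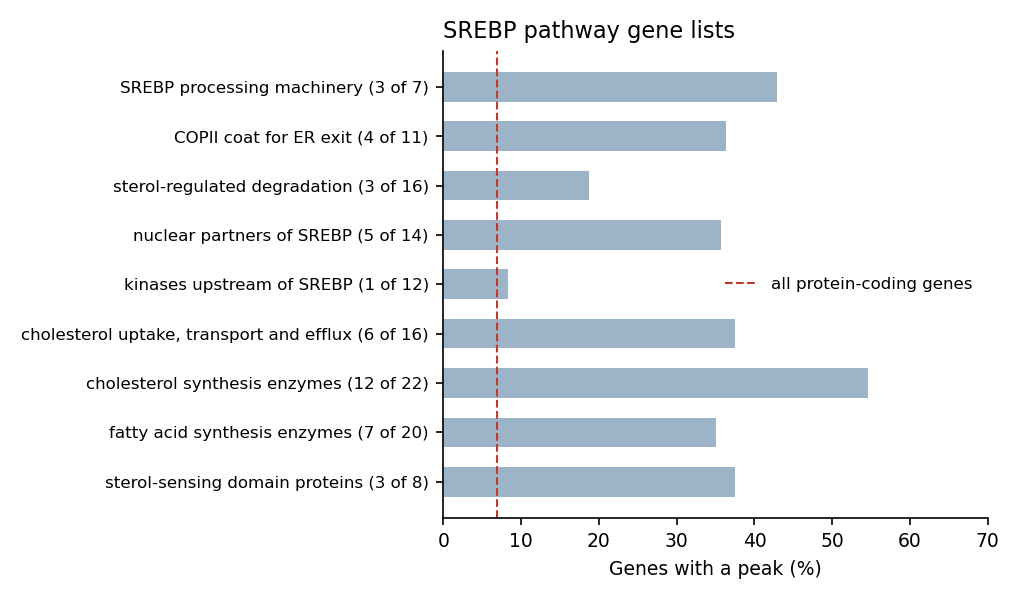
Share of genes with at least 1 peak (horizontal, percent) in each of the 9 SREBP pathway lists, with counts beside the names and a dashed line at 6.83%, the share of all protein-coding genes. In the processing machinery (3 of 7) the genes with a peak are the members SREBF2, SCAP and INSIG1, chosen for having peaks. SCAP is also counted in the sterol-sensing list, where 2 of the other 7 genes had a peak. The cholesterol synthesis list is the highest bar at 54.5% for peaks as deposited, and held 2 of 22 genes at a −log10 q of at least 5.

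Checks of the sample give little, since peaks do not measure expression. EIF4A1 itself had 0 peaks. Of 8 epithelial markers JUP (6.43) and CTNNB1 (2.99) had a peak and the keratin genes KRT8 and KRT18 had 0. Of 6 markers of luminal prostate cells, the androgen receptor gene among them, 0 had a peak, and of 9 blood, endothelial and stromal markers VWF had 1 peak of 2 reads. The CTNNB1 and VWF peaks have the same fold and reads as that of SCAP.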

How the data were processed

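RIP-seq peaks of 1 eIF4A1 and 1 IgG library of DU145 cells were read from a peak track and an annotated table. Per the submitters' processing notes BWA, MACS2 and ChIPseeker were among the tools, without versions, and hg19, GRCh38 and hg38 among the builds. The fold (a linear ratio over control), the −log10 p and −log10 q values and the score are deposited by the authors, per the narrowPeak column order, and the score is 10 times −log10 q, cut to a whole number. The track is filed under the IgG sample but its peaks are named after the eIF4A1 library. The sources used here state neither the filter named in the peak names nor the handling of duplicates. The tables joined on the peak name with the same summit and −log10 q in 1919 peaks. Coordinates are hg38, 1-based: the authors' transcript overlapped the GRCh38.p14 RefSeq gene of the same ID in 1901 of 1913 placed peaks. Peaks carry no strand.

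The sources used here give no library totals. Reads at a summit and the background were solved from fold = (reads + 1)/(background + 1) and the upper Poisson tail beyond the read number, and the best whole read number left at most 0.000761 in −log10 p. This rests on the MACS2 formula. Data simulated with that same formula checked the inversion only, not whether the deposited values follow it. A background was read as control reads at the summit, per 1 kb or per 10 kb for a fragment length of 20 bases, the shortest peak. The background of 2.64 at SREBF2 equals 3 control reads at the summit or 150 in 1 kb, which give the same fold. Genes were credited with peaks by the deposited gene ID, leaving out distal intergenic peaks. Python 3.11.15, pandas 2.3.3 and SciPy 1.17.1 were used.

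The members and lists were chosen with earlier results of these data known. Named were the 3 members, every gene of the processing list, EIF4A1, FASN, up to 5 genes of each other list by fold and up to 3 similar genes per member. Some genes named by this rule are not reported here. ACLY, MYO16-AS1, RNVU1-18, RNA5-8SN4, RN7SL1 and MIR33A were named after their values were seen. Sequence of the peaks was not used here, so their base composition was not examined.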

Additional observations from a re-analysis of the deposited data

How the results depend on the processing

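The 4 peaks of SREBF2, SCAP and INSIG1 fell to 1 at a −log10 q of at least 5 (downstream INSIG1), to 1 at a fold of at least 5 (upstream INSIG1), to 2 with at least 5 reads (SREBF2 and upstream INSIG1) and to 1 when the background was set to at least 1 control read (SREBF2). The SCAP peak was kept by none of these 4 settings. The count stayed 4 by RefSeq gene body and with peaks within 100 bases merged, and was 3 in exon and UTR classes. The share of protein-coding genes with a peak, 6.83% as deposited, was 2.1%, 1.65% and 1.9% under the first 3 settings. Fewer peaks enter these settings by construction.

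At a −log10 q of at least 5 the lists held 1 gene for the processing machinery, 0 for COPII, 1 for degradation, 3 for nuclear partners, 3 for uptake and transport, 2 for cholesterol synthesis and 0 for sterol-sensing proteins. With at least 5 reads they held 2 for COPII, 1 for degradation, 1 for uptake and transport, 5 for cholesterol synthesis, 4 for fatty acid synthesis and 1 for sterol-sensing proteins. In exon and UTR classes they held 1 for COPII, 1 for degradation, 1 for nuclear partners, 0 for kinases, 1 for uptake and transport, 6 for cholesterol synthesis, 4 for fatty acid synthesis and 1 for sterol-sensing proteins. By RefSeq gene body degradation held 1 of 16, near the 6.98% of all protein-coding genes. Under these 4 settings the other list counts stayed within 1.5 times. For 2 settings applied to the lists after seeing the data, the counts for processing machinery, COPII, degradation, nuclear partners, kinases, uptake and transport, cholesterol synthesis, fatty acid synthesis and sterol-sensing proteins, in that order, were 1, 1, 1, 4, 1, 1, 5, 3 and 1 at a fold of at least 5. With every background raised to no less than 1 control read they were 1, 1, 0, 2, 0, 0, 1, 3 and 0.

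Distances from the authors' transcript starts were -6553 bases for SREBF2, 201 for SCAP, 7002 and 8312 for INSIG1. From the 5' end of the RefSeq gene they were 34031, 34236, 10731 and 12041, and the sign changed for SREBF2, because a different start is used. The promoter share was 16.5% by peak length, against 25.0% by number of peaks. The interval given for the latter is for a count of peaks and does not apply to the share by length. No paired analysis was possible because there was 1 library for each antibody, and no replicate could be left out. Reads per peak, from 2 to 15 here, limit every rank.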
